A study of Mus musculus with 12 samples.

Results

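The 6 actin genes of the mouse were followed through the histone marks of C2C12 cells as they turned from myoblasts into myotubes. The genes were taken by name, with earlier results of these data known, and make up 6 of the 22350 protein-coding genes on chromosomes 1 to 19 and X. C2C12 is a clonal mouse myoblast line of the strain C3H, and the cells were at passages 15 to 18. Chromatin immunoprecipitation and sequencing (ChIP-seq) was done for 6 marks (H3K4me3, H3K4me2, H3K4me1, H3K27ac, H3K27me3 and H3K36me3). One group held myoblasts near confluence in 10% serum. The other held myotubes about 5 days after serum was withdrawn, parted from unfused cells with a mild trypsin treatment. Each mark had 1 library per cell type, so no value has a replicate, no p-value was computed, and every ratio compares 2 libraries and not the conditions. In these bulk libraries, a larger share of marked cells and more mark per cell cannot be told apart.

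Actin monomers polymerise into the thin filaments of the sarcomere and into the microfilaments of the cytoplasm. Mammals carry 6 actin genes whose proteins are almost alike. Acta1 (skeletal alpha-actin) and Actc1 (cardiac alpha-actin) encode the actins of striated muscle, and both are expressed in developing skeletal muscle. Acta2 (aortic smooth muscle alpha-actin) and Actg2 (enteric smooth muscle gamma-actin) encode those of smooth muscle, and Actb and Actg1 the cytoplasmic beta- and gamma-actins present in nearly every cell. H3K4me3 marks active transcription start sites (TSSs), H3K27ac active promoters and enhancers, H3K4me1 enhancers and the margins of promoters, H3K36me3 transcribed gene bodies, and H3K27me3 genes held silent by Polycomb proteins. The CArG box is the binding motif of serum response factor (SRF), a known regulator of actin genes in muscle and non-muscle cells.

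All 6 genes lie on the minus strand of mm9, the build of the deposited files. Acta1 (ENSMUSG00000031972.3) spans chr8:126415669-126418651, Actc1 (ENSMUSG00000068614.7) chr2:113873018-113879284 and Acta2 (ENSMUSG00000035783.8) chr19:34315580-34329826. Actg2 (ENSMUSG00000059430.8) spans chr6:83462899-83486259, Actb (ENSMUSG00000029580.7) chr5:143664794-143668433 and Actg1 (ENSMUSG00000062825.8) chr11:120207004-120209856. Each gene was given 1 promoter, 1 kb either side of the annotated TSS with the most H3K4me3 reads. For Actb this TSS (position 143667500) lies 933 bp inside the most upstream one (143668433), for Actc1 it is at 113878623 against 113879284, and for Actg1 at 120209793 against 120209856. Acta1 overlaps Gm20388, a protein-coding gene annotated on the plus strand. Actc1 overlaps RP23-230H3.2, a long non-coding RNA gene also on the plus strand. Actg1 overlaps AL669855.1, a microRNA gene on its own strand. The ChIP reads cannot be assigned to either of 2 overlapping genes.

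The 200 bases before the TSS are shown for 5 of the genes, because most of them hold the SRF motif. Capitals mark CArG boxes (CC, 6 bases of A or T, GG). The windows are read 5′ to 3′ on the minus strand of mm9. They are chr8:126418652-126418851 for Acta1, chr2:113878624-113878823 for Actc1, chr19:34329827-34330026 for Acta2 and chr6:83486260-83486459 for Actg2. For Actg1 (chr11:120209857-120210056) the window before the most upstream TSS is shown, since the one before the TSS with most H3K4me3 runs over exons.
Acta1: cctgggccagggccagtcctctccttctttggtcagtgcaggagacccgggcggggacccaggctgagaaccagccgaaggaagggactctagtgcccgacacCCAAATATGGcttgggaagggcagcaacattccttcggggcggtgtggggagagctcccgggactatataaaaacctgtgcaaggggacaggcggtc
Actc1: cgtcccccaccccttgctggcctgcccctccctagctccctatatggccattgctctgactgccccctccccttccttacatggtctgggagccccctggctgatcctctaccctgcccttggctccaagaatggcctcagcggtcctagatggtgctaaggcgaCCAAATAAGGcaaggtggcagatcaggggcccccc
Acta2: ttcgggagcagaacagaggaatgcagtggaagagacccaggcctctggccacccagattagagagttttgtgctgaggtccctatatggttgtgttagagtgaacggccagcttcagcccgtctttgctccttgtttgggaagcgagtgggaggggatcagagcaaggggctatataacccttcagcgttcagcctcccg
Actg2: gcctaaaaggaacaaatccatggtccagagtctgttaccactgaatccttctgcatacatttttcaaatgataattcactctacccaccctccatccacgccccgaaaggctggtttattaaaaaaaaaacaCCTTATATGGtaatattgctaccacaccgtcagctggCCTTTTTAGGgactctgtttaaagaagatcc
Actg1: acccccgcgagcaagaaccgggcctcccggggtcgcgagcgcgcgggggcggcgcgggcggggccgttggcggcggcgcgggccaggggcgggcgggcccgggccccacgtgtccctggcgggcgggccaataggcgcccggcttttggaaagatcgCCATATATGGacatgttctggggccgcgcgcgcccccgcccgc

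A CArG box was found before the TSS of 4 of these 5 genes, against 0.953% of all 22350 promoters in windows of the same length (213 promoters, at the TSS with most H3K4me3). In Acta1 the box lay 97 to 88 bp before the TSS, and in Actc1 35 to 26 bp. Actg2 held 2 boxes, 68 to 59 bp and 31 to 22 bp before the TSS. In Actg1 the box lay 43 to 34 bp before the most upstream TSS. No match lay in the window of Acta2, which says only that these letters are absent there. The letters TATAAA stood 31 to 26 bp before the TSS of Acta1 and before no other of the 5 (9.55% of all promoters), and CATTCC was found before Acta1 and Acta2 (8.41%). The E-box letters CANNTG were found before Actg2 and Actg1 at the shown TSSs (53.1% of all promoters). GGGCGG was found before Acta1 and Actg1 at the shown TSSs (39.8% of promoters at the TSS with most H3K4me3). Every motif was searched on both strands.

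The base composition split the family by class. In 1 kb centred on the TSS with most H3K4me3, the ratio of observed to expected CpG was 0.943 in Actg1 and 0.849 in Actb. It was 0.253 in Acta1, 0.225 in Actc1, 0.339 in Acta2 and 0.187 in Actg2, against a median of 0.567 over all promoters. The 2 cytoplasmic genes thus lay above that median and the 4 muscle genes below it. GC content was 73.4% in Actg1 and 64.8% in Actb, and between 46.3% and 56.2% in the 4 muscle genes (median of all promoters 55.3%).

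Levels are given as fold enrichment, the reads per base of a window over the mean of that library, with an exact Poisson 95% interval. Ratios of myotubes to myoblasts are scaled by total reads with 1 read added to each count, and carry an exact conditional binomial 95% interval. A ratio was called past 2-fold when it was at least 2 or at most 0.5 with 20 or more reads in both libraries together. Both kinds of interval cover counting error only. Libraries held 1858771 (H3K27ac of myoblasts) to 7033100 reads (H3K36me3 of myoblasts). The deposited peak lists of H3K27ac and H3K27me3 in myoblasts appear to carry each other's names: the list filed with the H3K27ac sample held 6.76 times the genome mean of H3K27me3 reads and 0.588 times that of H3K27ac. Read counts do not use these lists. In H3K4me3, the 5 myotube markers (Myog, Ckm, Myh3, Tnnt3, Mylpf) lay at 0.922- to 5.99-fold in myoblasts and 17.1- to 86.1-fold in myotubes. The 3 myoblast markers (Myod1, Myf5, Pax7) lay at 6.91- to 22.6-fold and 2.71- to 20.9-fold. The 4 cardiac markers (Nppa, Myl7, Tnni3, Myh6) stayed between 0.388- and 1.55-fold in both cell types, none of them at 0 reads. The 4 smooth muscle markers (Myh11, Cnn1, Smtn, Myocd) ranged from 0.922- to 38.7-fold in myoblasts and from 0- to 48.9-fold in myotubes, and 2 and then 1 of them stood above 5-fold.

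The genes of striated muscle held few H3K4me3 and H3K27ac reads at their promoters in myoblasts and many in myotubes. The Acta1 promoter held 4 H3K4me3 reads in myoblasts, 1.84-fold (0.502 to 4.72), and 215 in myotubes, 83.4-fold (72.6 to 95.3). This was a ratio of 36.3 (17.4 to 167), and the myotube level lay at the 99.4th percentile of all promoters. H3K27ac at Acta1 went from 6 reads, 4.13-fold (1.51 to 8.98), to 489 reads, 132-fold (121 to 145), a ratio of 27.5 (14.6 to 87.8) and the 99.9th percentile in myotubes. H3K4me2 went from 15 to 193 reads, a ratio of 10.9 (6.87 to 21.2). H3K4me1 went from 19 to 34 reads and stayed within 2-fold at 1.81 (1.02 to 3.43).

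Acta1 was also the only one of the 6 with a called loss of promoter H3K27me3, where the other 5 had too few reads for a call. Its promoter held 31 H3K27me3 reads in myoblasts, 5.65-fold (3.84 to 8.02) and at the 97.0th percentile of promoters, and 6 in myotubes, 1.53-fold (0.561 to 3.33). The ratio was 0.306 (0.0924 to 0.659). Over the gene body the reads went from 45 to 5, a ratio of 0.183 (0.0482 to 0.390). In myoblasts 16 of the 31 promoter reads lay in the 1 kb upstream of the TSS, outside the gene. The 20 kb on either side, which include that stretch, were at 0.957-fold (0.783 to 1.16) as a whole. A deposited peak of 968 bp (score 51.09) overlaps the Acta1 promoter in the myoblast list deposited as H3K27ac, the one where H3K27me3 reads were enriched.

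Actc1 was likewise past 2-fold upward in H3K4me3, H3K4me2 and H3K27ac, and in H3K4me1 as well. Its promoter held 1 H3K4me3 read in myoblasts and 77 in myotubes, 29.9-fold (23.6 to 37.3), a ratio of 32.8 (11.3 to 2591) that rests on that 1 read. H3K27ac went from 5 reads, 3.44-fold (1.12 to 8.02), to 322 reads, 87.1-fold (77.9 to 97.2), a ratio of 21.2 (10.7 to 78.5). H3K4me2 went from 16 to 89 reads, a ratio of 4.78 (2.93 to 9.16), and H3K4me1 from 21 to 55 reads, a ratio of 2.63 (1.61 to 4.71). At the more upstream TSS of Actc1 the H3K4me3 ratio was 11.2. In myotubes Actc1 stood below Acta1 in H3K4me3, H3K4me2 and H3K27ac with intervals that did not overlap, and above it in H3K4me1 (11.2- against 6.93-fold, overlapping intervals). Its myotube level lay at the 77.2th percentile of all promoters in H3K4me3 and at the 99.2th in H3K27ac. H3K27me3 at the Actc1 promoter was at the library mean in both cell types, 6 and 4 reads, too few for a call. Around the gene it was not: the 20 kb on either side held 259 reads in myoblasts, 2.36-fold (2.08 to 2.67), and 123 in myotubes, 1.57-fold (1.30 to 1.87), a ratio of 0.667 (0.532 to 0.827).

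The smooth muscle genes parted from each other. Acta2 was already marked in myoblasts and more so in myotubes. Its H3K4me3 went from 71 reads, 32.7-fold (25.6 to 41.3), to 182 reads, 70.6-fold (60.7 to 81.6), a ratio of 2.14 (1.63 to 2.88). Its H3K27ac went from 41 reads, 28.2-fold (20.2 to 38.3), to 297 reads, 80.3-fold (71.5 to 90.0), a ratio of 2.79 (2.05 to 4.05). H3K4me2 (94 and 97 reads, ratio 0.931) and H3K4me1 (45 and 37 reads, ratio 0.853) stayed within 2-fold at Acta2. H3K27me3 reads at this promoter were 7 in myoblasts and 0 in myotubes, which allows up to 0.765-fold.

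Actg2 held H3K4me3 near the library mean and had no deposited peak at its TSS in any of the 12 lists. There were 3 H3K4me3 reads in each library, at 1.38-fold (0.285 to 4.04) and 1.16-fold (0.240 to 3.40). H3K27ac was at 10 and 8 reads, 6.88-fold (3.30 to 12.6) in the shallow myoblast library and 2.16-fold (0.934 to 4.26) in myotubes, too few together for a call. Its H3K4me1 went from 21 to 7 reads, a ratio of 0.376 (0.124 to 0.841), and was the only actin promoter past 2-fold downward in that mark. H3K27me3 at the Actg2 promoter was close to the mean, 8 and 5 reads. Over the 23361-bp gene body H3K27me3 stood at 1.58-fold (1.28 to 1.91) and 1.79-fold (1.42 to 2.22). The 200 kb around Actg2 stood at 2.21 times the genome mean in both cell types, so the gene body was not raised above its surroundings.

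The cytoplasmic genes were strongly marked in both cell types. Actb held 184 and 183 H3K4me3 reads, 84.8-fold (73.0 to 98.0) in myoblasts and 71.0-fold (61.0 to 82.0) in myotubes, a ratio of 0.837 (0.678 to 1.03). Its H3K27ac was 126-fold (108 to 145) from 183 reads and 99.6-fold (89.6 to 110) from 368 reads, a ratio of 0.789 (0.661 to 0.950). Actg1 held 137 and 163 H3K4me3 reads, 63.1-fold (53.0 to 74.7) and 63.2-fold (53.9 to 73.7), a ratio of 1.0 (0.792 to 1.27). Its H3K27ac was 122-fold (104 to 141) from 177 reads and 104-fold (94.0 to 115) from 385 reads, a ratio of 0.853 (0.714 to 1.03). H3K4me2 at Actg1 was lower in myotubes, 219 against 149 reads and a ratio of 0.615 (0.495 to 0.760), but within 2-fold. H3K4me1 at Actb went from 4 to 17 reads, a ratio of 3.72 (1.43 to 17.9). That gain depends on where the window was put, since around the most upstream TSS of Actb the reads were 37 and 38 and the ratio 1.06.

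In myotubes the order of H3K4me3 levels was Acta1, Actb, Acta2, Actg1, Actc1 and Actg2, and each of the first 3 overlapped in interval with the next. In myoblasts it was Actb, Actg1, Acta2, Acta1, Actg2 and Actc1, with overlaps between Actb and Actg1, Acta1 and Actg2, and Actg2 and Actc1. In H3K27ac the myotube order was Acta1, Actg1, Actb, Actc1, Acta2 and Actg2. Only Acta1 and Actg2 stood clear of their neighbours in it. That Acta1, at 132-fold (121 to 145), stood clear of Actb rests on the TSS used for Actb. At its most upstream TSS Actb was at 119-fold (108 to 131), still below Acta1 but with an overlapping interval. Counted per position that a unique read can reach, Acta1 was at 114-fold and Actg1 at 106-fold. In myoblasts the H3K27ac order was Actb, Actg1, Acta2, Actg2, Acta1 and Actc1.

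**Figure D1:**
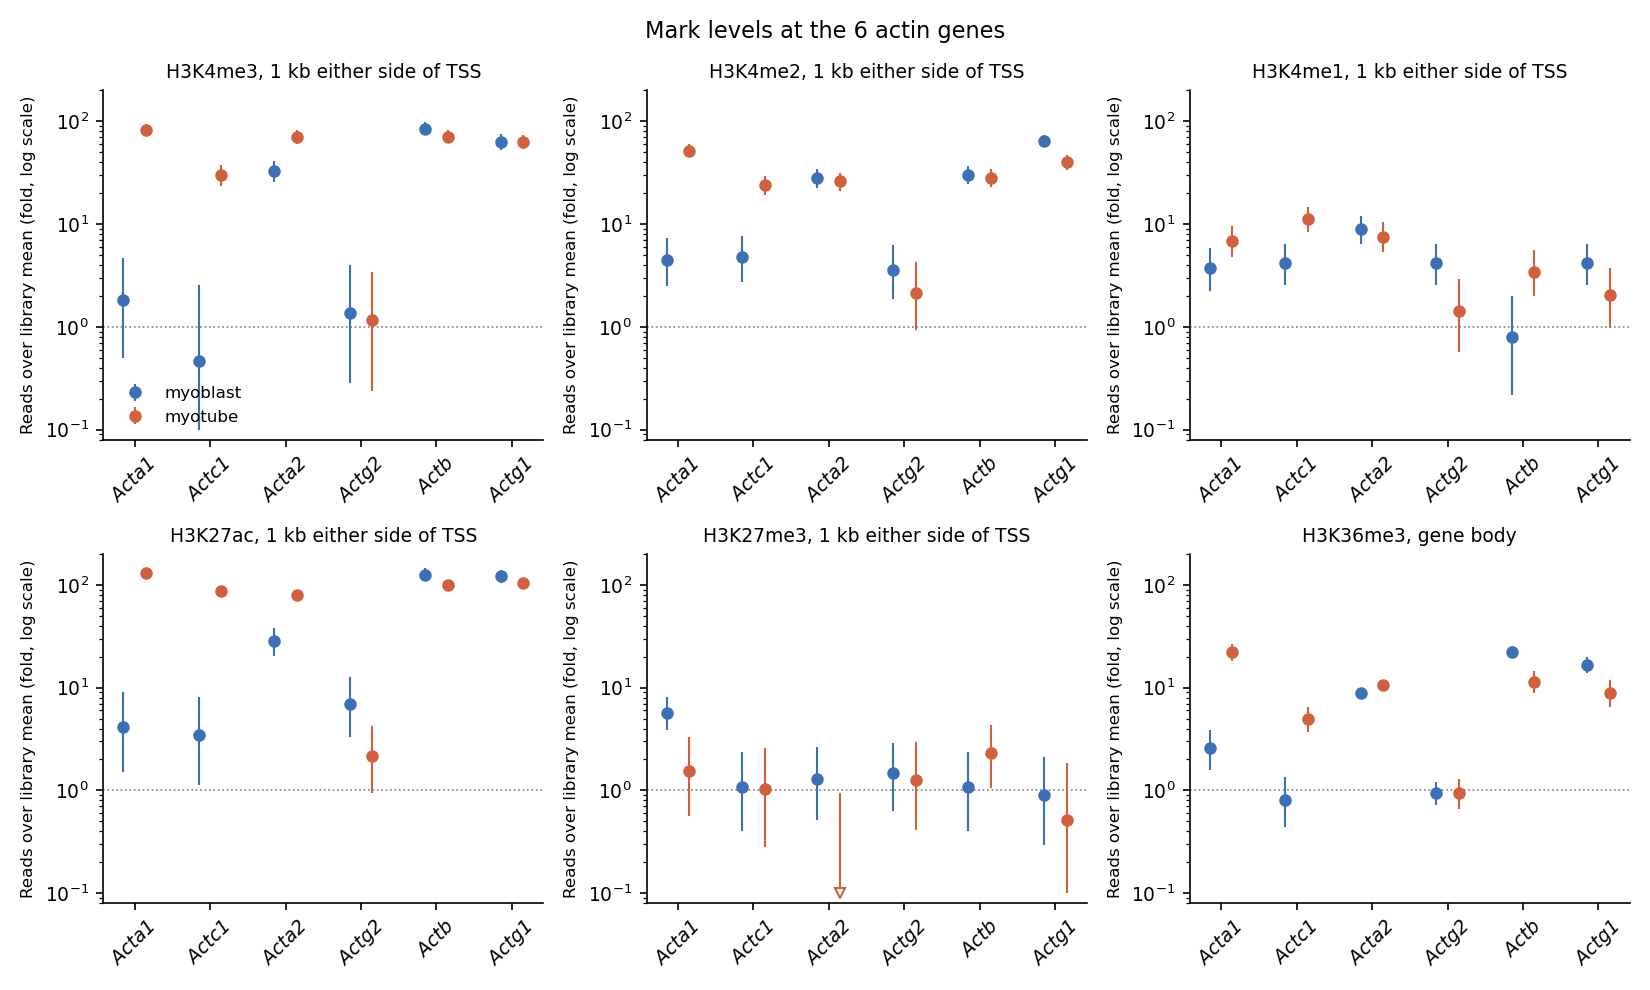
Fold enrichment over the library mean (log axis) of each mark at the 6 actin genes in myoblasts (blue) and myotubes (red), 1 kb either side of the TSS or, for H3K36me3, over the gene body. Points are 1 library each, bars are exact Poisson 95% intervals drawn down to 0.1, the open triangle is a count of 0 and the dotted line is the library mean. H3K4me3 of Acta1 moves from 1.84 to 83.4 and that of Actb from 84.8 to 71.0, while Actg2 stays near 1.

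When scaled by total reads, most promoters with enough reads had a ratio below 1 in the 5 marks read there, and those of Acta1, Actc1 and Acta2 went the other way in H3K4me3 and H3K27ac. In H3K4me3, 3 of the 6 actin promoters were past 2-fold upward (Acta1, Actc1, Acta2) and 0 downward, where 3.58% of the 11493 promoters with enough reads were higher and 7.73% lower. In H3K27ac the same 3 were higher and 0 lower, against 5.38% higher and 41.4% lower of 10875. In H3K4me2, 2 were higher (Acta1, Actc1) and 0 lower, against 2.45% and 36% of 13365. In H3K4me1, 2 were higher (Actc1, Actb) and 1 lower (Actg2), against 8.94% and 18.8% of 11918. In H3K27me3, 1 was lower (Acta1), 0 were higher and 5 had too few reads, against 2.44% higher and 20.1% lower of 3407. In H3K36me3 over gene bodies, 2 were higher (Acta1, Actc1) and 0 lower, against 7.43% and 6.45% of 16067.

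The median ratio of all genes was 0.869 in H3K4me3, 0.594 in H3K4me2, 0.871 in H3K4me1, 0.570 in H3K27ac, 0.787 in H3K27me3 and 1.02 in H3K36me3. Relative to these medians the H3K27ac ratio was 48.2 at Acta1, 37.2 at Actc1, 4.89 at Acta2, 1.50 at Actg1, 1.38 at Actb and 0.565 at Actg2. The cytoplasmic promoters thus lay below 1 in H3K27ac when scaled by total reads and above 1 relative to the median promoter, and the direction of their difference depends on the scaling. The same held for H3K4me2 at Acta2 (0.931 and 1.57 relative to the median), Actb (0.938 and 1.58) and Actg1 (0.615 and 1.04). In H3K4me3 the ratio over the median was 41.8 at Acta1, 37.7 at Actc1 and 2.46 at Acta2, 1.15 at Actg1 and 0.963 at Actb. When ratios were set to 1 at the median of the 10488 promoters that had an H3K4me3 peak before and after differentiation, higher promoters made up 55.6% of those past 2-fold in H3K27ac in place of 11.5%. This share was 41.6% in place of 6.38% in H3K4me2, 51.6% in place of 31.7% in H3K4me3 and 28.4% in place of 10.8% in H3K27me3. With scaling by windows without peaks the share in H3K4me2 was 1.91%, and 70.7% of promoters were lower. It was 14.9% in place of 32.3% in H3K4me1 and 70.2% in place of 53.5% in H3K36me3. Under both scalings the same 3 actin promoters in H3K4me3 and in H3K27ac were past 2-fold upward. With the median of marked promoters set to 1, 4.87% of all promoters with enough reads were higher in H3K4me3 and 15.3% in H3K27ac. With windows without peaks these shares were 3.83% and 5.27%.

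**Figure D2:**
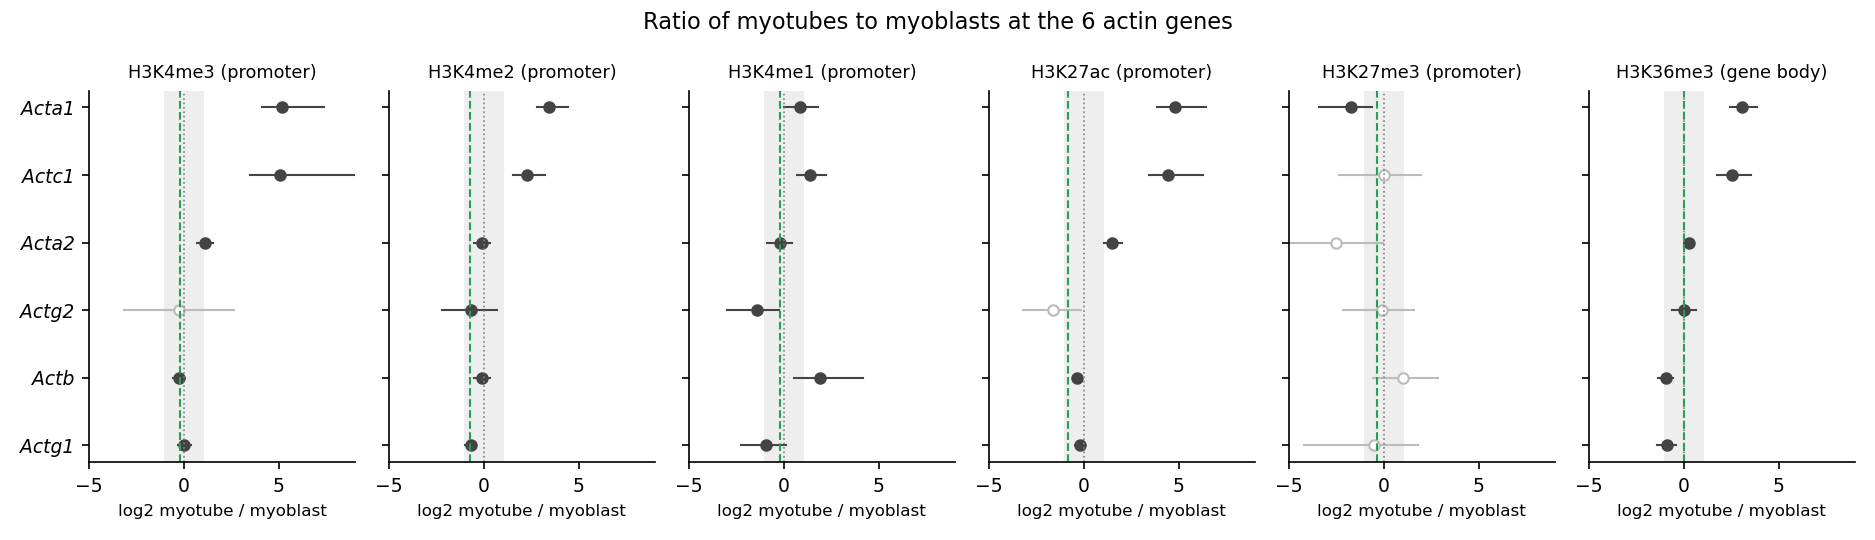
Log2 ratio of myotubes to myoblasts for each actin gene and mark, with exact 95% intervals cut at the edges of the axis. Grey bands span 2-fold either way, dashed green lines are the median of all genes with enough reads, and open grey points have fewer than 20 reads. Acta1 and Actc1 lie right of the band in H3K4me3, H3K4me2, H3K27ac and H3K36me3, and Acta2 in H3K4me3 and H3K27ac.

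In H3K36me3 over gene bodies Acta1 and Actc1 were past 2-fold upward, and both cytoplasmic genes were lower in myotubes. Acta1 held 21 H3K36me3 reads in myoblasts, 2.56-fold (1.59 to 3.91), and 112 in myotubes, 22.3-fold (18.3 to 26.8), a ratio of 8.38 (5.42 to 14.6). Actc1 went from 14 reads, 0.813-fold (0.444 to 1.36), to 52 reads, 4.92-fold (3.68 to 6.45), a ratio of 5.76 (3.31 to 11.8). Acta2 was at 347 and 255 reads, 8.86-fold (7.95 to 9.84) and 10.6-fold (9.35 to 12), and Actg2 at 60 and 37 reads, 0.934-fold (0.713 to 1.20) and 0.939-fold (0.661 to 1.29). Actb went from 22.4-fold (19.5 to 25.5; 224 reads) to 11.4-fold (8.89 to 14.4; 70 reads), a ratio of 0.515 (0.384 to 0.669) that was just inside the 2-fold limit, and 0.435 without the first 1 kb of the gene. Actg1 went from 16.7-fold (14.0 to 19.8; 131 reads) to 8.94-fold (6.47 to 12; 43 reads), a ratio of 0.544 (0.370 to 0.761). Both intervals lay below 1, while those of H3K4me3 at the same promoters included 1. In myotubes Acta1 stood highest of the 6 per base of the gene body, with an interval clear of the next gene, Actb. The intervals of Actb and Acta2, and of Acta2 and Actg1, overlapped.

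Levels between actin genes also depend on how much of each gene a short unique read can reach. Of all sampled positions of the genome, 84.5% begin a 34-base sequence that occurs once. In the coding sequence this was 95.2% for Acta1, 99.6% for Actc1, 98.0% for Acta2 and 99.6% for Actg2, but 68.1% for Actb and 26.2% for Actg1. Over the gene body it was 84.0% for Actb and 40.5% for Actg1. Counted per unique position, H3K36me3 of Actg1 was 34.9-fold in myoblasts and 18.7-fold in myotubes, against 22.5-fold and 11.5-fold for Actb, which turns their order. Acta1 was then at 19.2-fold in myotubes, close to Actg1. The unique positions are the same in both cell types, so this share cancels in a ratio within 1 gene.

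The side of the TSS on which reads lay differed between genes. H3K27ac lay mostly upstream of the cytoplasmic TSSs, where only 16.4% (Actb) and 25.4% (Actg1) of the reads within 1 kb were downstream in myoblasts, and 19.6% and 22.3% in myotubes. For Actb the TSS used lies 933 bp inside the most upstream one. In Actc1 and Acta2, 68.9% and 68.0% of the myotube H3K27ac reads lay downstream, and in Acta1 39.0%. H3K4me3 of myotubes lay downstream for 77.7% of reads in Acta1, 80.5% in Actc1 and 90.7% in Acta2. The deposited H3K4me3 peaks of myotubes at these genes were long, 8757 bp at Acta1 (beyond the whole 2983-bp gene), 6461 bp at Actc1 and 5465 bp at Acta2. In myoblasts, Acta2, Actb and Actg1 had an H3K4me3 peak within 1 kb of the TSS, and in myotubes all but Actg2 did. H3K27ac peaks lay at 5 of the 6 in myotubes, all but Actg2. In myoblasts they lay at 1 with the lists as deposited and at 3 (Acta2, Actb, Actg1) with the 2 myoblast lists exchanged.

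The 20 kb on either side of Acta1 also changed. These flanks begin at the ends of the gene and share 1 kb with the promoter window. That stretch held 297 H3K27ac and 48 H3K4me3 reads in myotubes, and the 8757-bp H3K4me3 peak runs into both flanks. In the flanks as a whole H3K27ac went from 92 to 1873 reads, 3.17-fold (2.55 to 3.88) to 25.3-fold (24.2 to 26.5), a ratio of 7.93 (6.49 to 9.98). H3K4me3 (5.35), H3K4me2 (4.18) and H3K4me1 (2.12; 1.71 when scaled by windows without peaks) were past 2-fold there too, and H3K36me3 (1.22) and H3K27me3 (1.11) were not. Among deposited H3K27ac and H3K4me1 peaks over 1 kb from any annotated TSS, the one with most H3K27ac reads near Acta1 spans chr8:126405459-126412275 (6817 bp). Its centre lies 9784 bp downstream of the TSS, past the 3′ end of the gene and in an intron of Gm20388. The regions selected for Acta1, Actc1 and Actb were H3K27ac peaks of myotubes, and those for Acta2, Actg2 and Actg1 were H3K4me1 peaks of myoblasts. A peak is high in the mark and cell type of its list, so a difference in that direction is partly set by the choice. H3K27ac in the Acta1 region went from 58 to 808 reads, a ratio of 5.39 (4.20 to 7.28). H3K4me1 was present in both cell types, 235 reads (13.6-fold) and 265 (15.9-fold), a ratio of 1.16 (0.973 to 1.39). H3K4me1 thus stood there already in myoblasts, when the Acta1 promoter held 4 H3K4me3 reads. The bin of 500 bp from 10000 bp downstream of the Acta1 TSS held 205 H3K27ac reads in myotubes, more than the 154 of the promoter bin from -1000.

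Around Actc1 the flanking H3K27ac went from 33 to 570 reads, a ratio of 6.61 (4.78 to 9.97), and H3K4me1 from 149 to 441, a ratio of 3.04 (2.53 to 3.71). The wider 200 kb around Actc1 rose as well, in H3K27ac from 0.688 to 6.58 times the genome mean and in H3K4me1 from 1.07 to 4.31. The rise was thus not confined to the flanks. The selected distal region, chr2:113884960-113886204, lies 6959 bp upstream in an intron of 2 long non-coding RNA genes. It went from 6 to 52 H3K27ac reads, a ratio of 2.98 (1.46 to 9.71), and from 16 to 52 H3K4me1 reads, a ratio of 3.22 (1.89 to 6.30). A stronger block nearer to Actc1 fell outside the selection, because it lies within 1 kb of an annotated start of the long non-coding RNA C130080G10Rik. The block is named after its values were seen. In its bin from -5000, H3K27ac went from 10 to 76 reads and H3K4me1 from 47 to 10.

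At Acta2 the selected region (chr19:34326515-34327398) lies inside the gene, 2870 bp downstream of the TSS, and overlaps an exon. It also lies within the deposited myotube peaks of H3K27ac and H3K4me3 that cover the TSS, so in myotubes it is not separate from the promoter. H3K4me3 there went from 7 to 34 reads, a ratio of 3.68 (1.78 to 10.9). H3K27ac there was 26 and 57 reads, a ratio of 0.845 (0.533 to 1.43), and H3K4me1 went from 44 to 22 reads, a ratio of 0.528 (0.295 to 0.880). The H3K27ac ratio of the Acta2 promoter, 2.79, lay above the H3K27ac interval of the region. The region was picked from the myoblast H3K4me1 list, which can favour a lower ratio there. With the 2 myoblast lists exchanged, the region chosen inside Acta2 was 1074 bp long and its H3K27ac ratio 0.871; the regions of the other 5 genes were the same. H3K27me3 over the body of Acta2 went from 28 reads, 0.716-fold (0.476 to 1.04), to 52 reads, 1.86-fold (1.39 to 2.44), a ratio of 2.56 (1.61 to 4.27). The flanks of Acta2 as a whole went from 34 to 220 H3K27ac reads, a ratio of 2.48 (1.77 to 3.77). Of these, 17 and 95 lay in the 1 kb upstream of the TSS, which is also part of the promoter window.

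**Figure D3:**
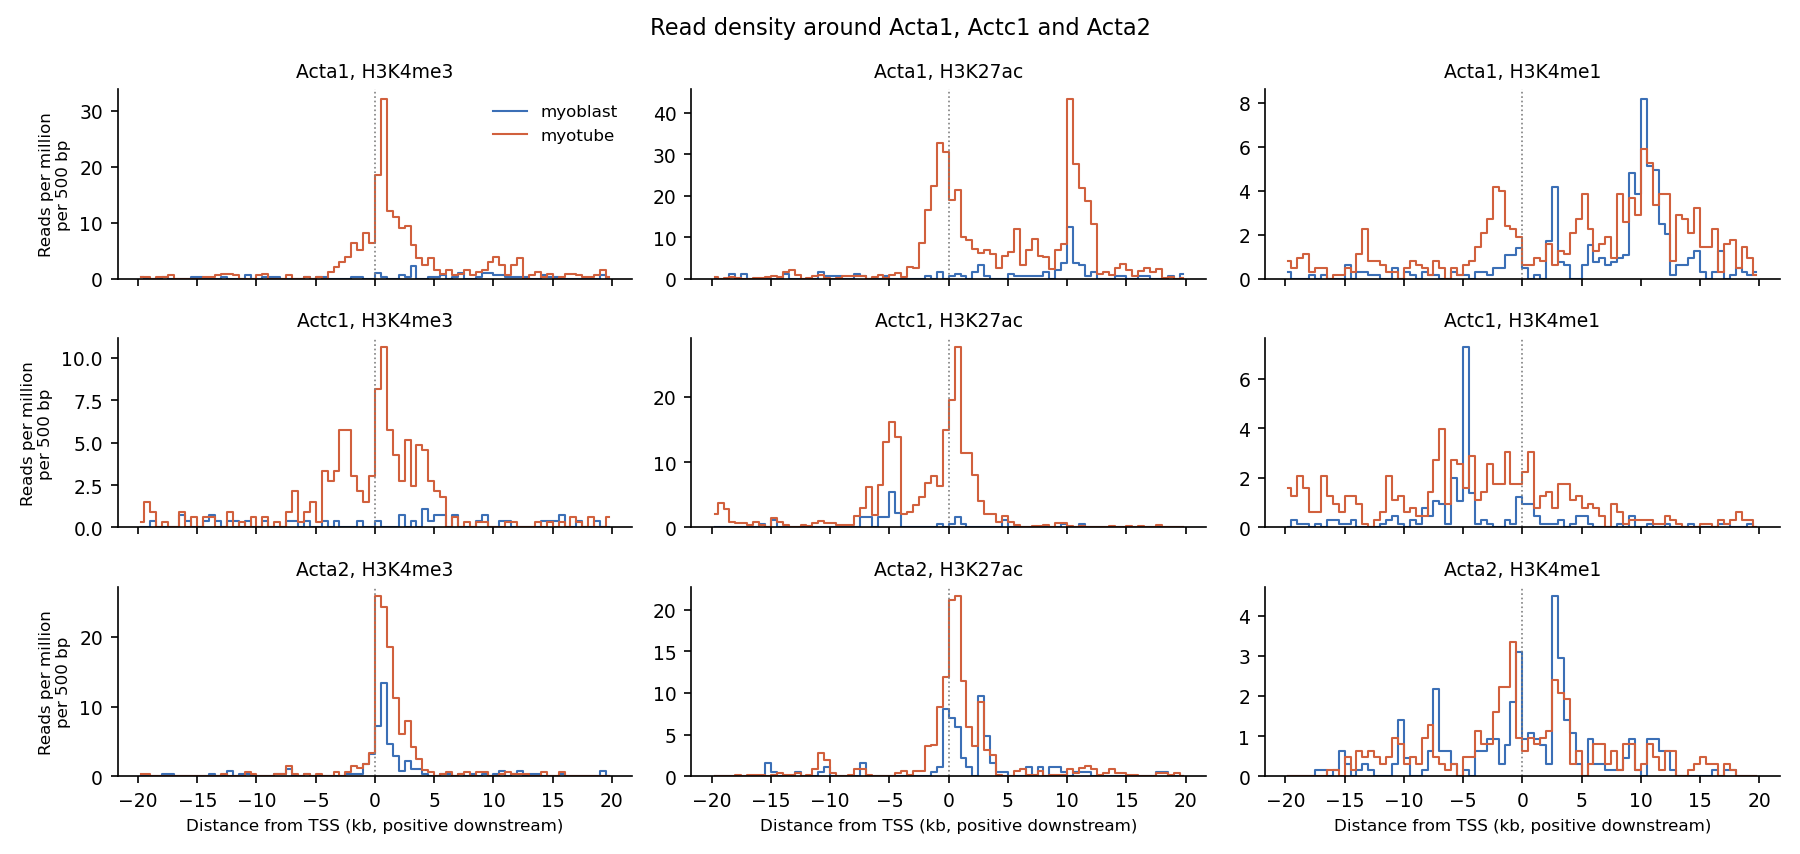
Reads scaled to library size (CPM) in bins of 500 bp within 20 kb of the TSS (distance in kb, downstream positive) for H3K4me3, H3K27ac and H3K4me1 at Acta1, Actc1 and Acta2, in myoblasts (blue) and myotubes (red). Myotube H3K27ac at Acta1 forms a block at the TSS and another about 10 kb downstream, where myoblasts already carry H3K4me1.

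H3K4me1 was lower around Actg1 in myotubes under each scaling. For H3K4me2 the size of the difference depended on the scaling, and for H3K27ac its direction did. In the 20 kb on either side of Actg1, H3K4me1 went from 753 to 258 reads, a ratio of 0.355 (0.306 to 0.408), and H3K4me2 from 850 to 416, a ratio of 0.442 (0.392 to 0.497) that was 0.708 with the median of marked promoters set to 1. H3K27ac was within 2-fold there at 0.590 (0.527 to 0.661), near the median of 0.570 over all promoters, and at 1.06 under that scaling. The wider 200 kb around Actg1 was lower in myotubes as well when scaled by total reads. H3K4me1 went from 5.98 to 3.56 times the genome mean there, H3K4me2 from 6.71 to 3.34 and H3K27ac from 5.18 to 2.94. The selected region at Actg1, chr11:120213842-120217168, lies 5712 bp upstream and overlaps no annotated gene. It was taken from the myoblast H3K4me1 list, so lower H3K4me1 in myotubes is partly set by the choice. The choice can favour lower H3K27ac and H3K4me2 in myotubes too. All 3 marks were past 2-fold downward in it: H3K27ac went from 62.0-fold (150 reads) to 19.2-fold (118 reads), a ratio of 0.310 (0.241 to 0.396), H3K4me1 from 225 to 59 reads, a ratio of 0.274 (0.200 to 0.362), and H3K4me2 from 133 to 47 reads, a ratio of 0.323 (0.224 to 0.448). With the median of marked promoters set to 1, a scaling applied to these surroundings after seeing the data, H3K27ac (0.558) and H3K4me2 (0.518) were within 2-fold and H3K4me1 (0.266) was not. The Actg1 promoter itself kept an H3K27ac ratio of 0.853, with an interval that did not overlap that of the upstream region. The region was picked from a myoblast list and the promoter was not, so this gap is partly set by the choice.

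In the 20 kb on either side of Actb no mark was past 2-fold when scaled by total reads, and H3K4me2 was at 0.422 when scaled by windows without peaks. Its selected region, chr5:143681973-143684428, lies 15700 bp upstream in no annotated gene and held 53 and 156 H3K27ac reads, a ratio of 1.14 (0.843 to 1.61), or 2.05 with the median of marked promoters set to 1. H3K4me1 there went from 146 to 91 reads, a ratio of 0.646 (0.490 to 0.842). The block of H3K4me3 about 10 kb downstream of the Actb TSS lies at the start of the neighbour Fbxl18. Near Actg2 the selected region (chr6:83445281-83446487) lies in an intron of Dguok, 40375 bp downstream of the Actg2 TSS. Its H3K4me1 went from 89 to 44 reads, a ratio of 0.516 (0.347 to 0.741), and its H3K27ac was 5 and 18 reads, a ratio of 1.25 (0.507 to 4.88).

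**Figure D4:**
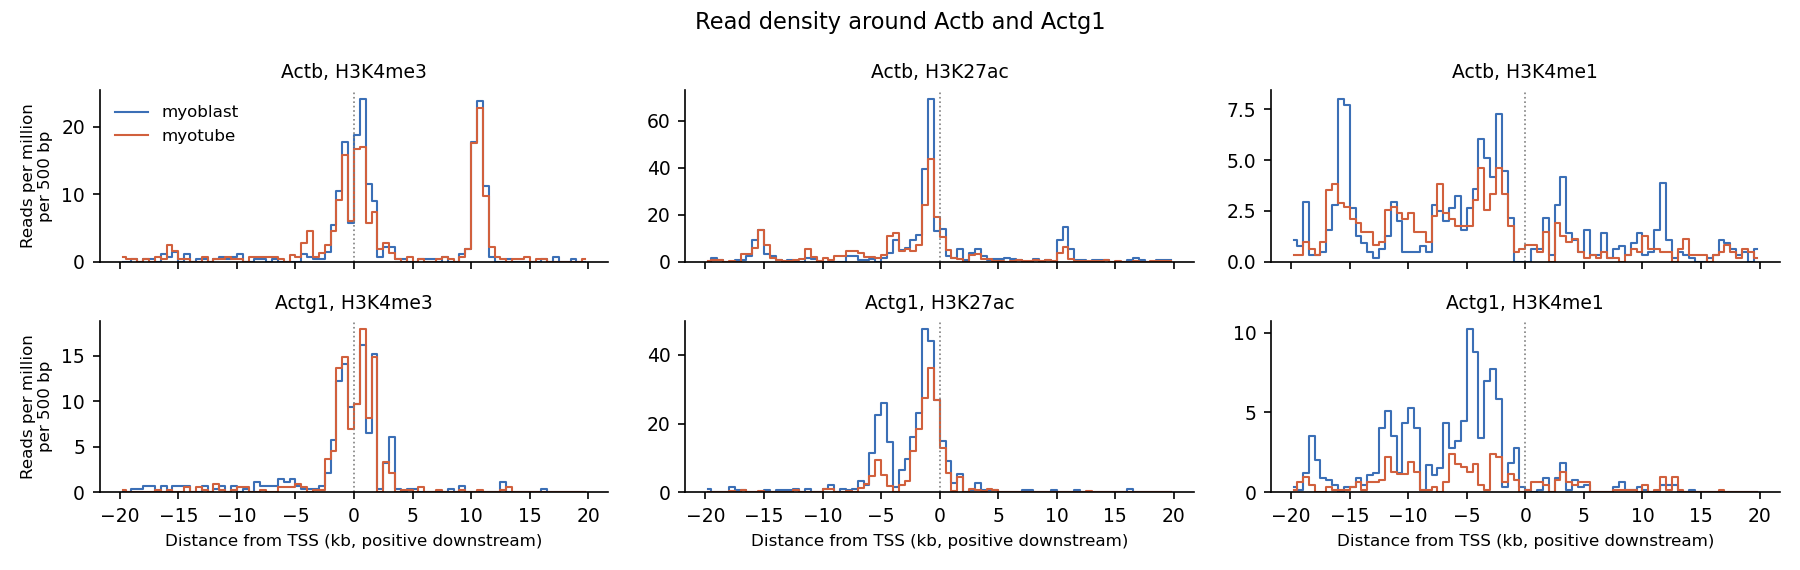
The same plot for Actb and Actg1, with CPM in 500-bp bins against the distance from the TSS in kb (downstream positive), myoblasts in blue and myotubes in red. At Actg1 the promoter block of H3K27ac is present in both cell types, while the block about 5 kb upstream and the upstream H3K4me1 are lower in myotubes.

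Likeness between genes was measured as the root mean square difference of log2 fold enrichment over the 12 libraries, among 17070 genes, as a description only. Within the family the nearest pair was Actb and Actg1 at 0.92, followed by Acta2 and Actg1 at 1.12 and by Acta1 and Actc1 at 1.21. The farthest pair was Actg2 and Actb at 3.72. By this measure Acta2, a smooth muscle actin, lay closer to the cytoplasmic genes (1.12 and 1.60) than to Acta1 (1.98), Actc1 (2.27) or its fellow smooth muscle gene Actg2 (3.32). The median distance of all genes to Acta2 was 1.88. Ranked by nearness to Acta2 among all genes, Actg1 stood at 11.4% and Actb only at 39.4%. Of all genes, those most like Acta1 were Srl (0.99), which encodes the sarcoplasmic reticulum protein sarcalumenin, Trim72 (0.99), the membrane repair protein MG53, and Neb (1.01), the thin filament protein nebulin. Those most like Actc1 were Card14 (0.59), 2310007L24Rik (0.62) and Mb (0.66), the gene of myoglobin. Acta2 was nearest to Trp53inp2 (0.47), Runx1 (0.55) and Capn1 (0.56), and Actg2 to 1700061G19Rik (0.37), Car5a (0.46) and Mbp (0.47). Actb was nearest to Tln1 (0.53), the gene of the actin-linking protein talin, Arpc4 (0.58), a subunit of the Arp2/3 actin nucleator, and Pkm2 (0.60), and Actg1 to Trib1 (0.29), Ric8 (0.39) and Jun (0.43).

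**Figure D5:**
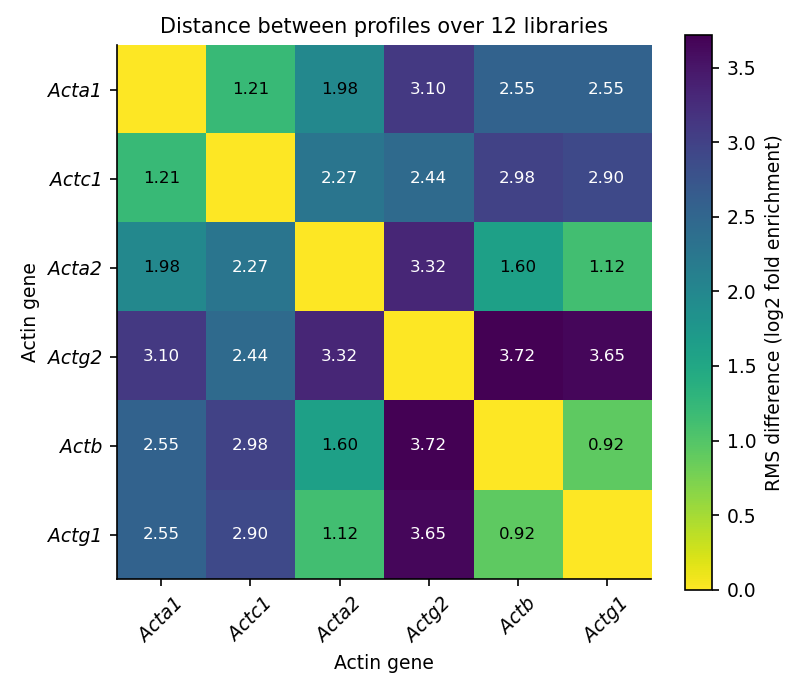
Root mean square difference of log2 fold enrichment over the 12 libraries between each pair of actin genes (the diagonal is 0 by construction). The smallest value is 0.92 for Actb and Actg1, and the row of Actg2 holds the largest, up to 3.72.

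The partners of actin were counted in lists written with earlier results of these data known. Of the thin filament and sarcomere list (Neb, Nrap, Lmod2, Lmod3, Xirp1, Tmod1, Tmod4), 6 of 7 matched the annotation. In H3K4me3, 4 of its 5 genes with enough reads were higher and 0 lower, with a median ratio of 17.3, and in H3K27ac 4 of 5 were higher with a median of 6.05. In H3K36me3, 4 of 6 were higher, with a median of 2.41. The medians of all genes were 0.869, 0.570 and 1.02 in these 3 marks, with 3.58%, 5.38% and 7.43% of them higher. Its highest called ratio was that of Lmod2, which encodes the thin filament nucleator leiomodin-2, from 1 to 360 H3K27ac reads, a ratio of 71.0 (25.3 to 5609). Its lowest was that of Xirp1 in H3K4me1, from 94 to 25 reads, a ratio of 0.283 (0.169 to 0.431).

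Capping and crosslinking genes (Capza1, Capza2, Capzb, Actn1, Actn2, Actn3, Actn4) were mixed. In H3K4me3, 2 of 7 were higher and 0 lower (median 1.23), against 3.58% and 7.73% of all promoters (median 0.869). In H3K27ac 3 were higher and 1 lower (median 1.03), against 5.38% and 41.4% (median 0.570). Actn2, the alpha-actinin of the Z-disc in striated muscle, held 0 H3K27ac reads in myoblasts and 80 in myotubes. With 3 reads taken for the 0 this was 10.5-fold higher, and the exact interval of the ratio starts at 8.34. H3K27me3 at Actn2 went from 17 to 3 reads, a ratio of 0.311 (0.0464 to 0.854). Among the 10 genes of monomer binding and turnover (Cfl1, Cfl2, Dstn, Pfn1, Pfn2, Cap1, Cap2, Tmsb4x, Tmsb10, Gsn), 1 was higher and 0 lower in H3K4me3, with a median of 0.869 that equals that of all promoters. In H3K36me3, 1 of 8 was higher and 2 were lower with a median of 0.596, against 7.43% and 6.45% of all gene bodies and a median of 1.02. The gene past 2-fold upward in H3K4me3 was Cap2, a cyclase-associated protein of striated muscle, with 3 and 34 reads. It also had the highest called ratio of the list, in H3K27ac, from 1 to 56 H3K27ac reads, a ratio of 11.2 (3.80 to 885). The lowest called ratio was that of Cfl2 (muscle cofilin) in H3K36me3, from 92 to 10 reads, a ratio of 0.193 (0.0823 to 0.341), while its H3K4me3 ratio was 1.0.

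For Srf and the genes of its cofactors (Mkl1, Mkl2, Myocd), 0 were higher in H3K4me3, H3K27ac or H3K36me3, where 3.58%, 5.38% and 7.43% of all genes were. At these shares a list of 3 or 4 genes would hold few or none. In H3K27ac 1 of 3 was lower, Mkl2, against 41.4% of all promoters (median of the list 0.600, of all 0.570). The lowest called ratio was that of Myocd, the SRF cofactor of smooth and cardiac muscle, in H3K4me2 from 89 to 22 reads, a ratio of 0.231 (0.133 to 0.359). Of the smooth muscle contractile genes (Tagln, Cnn1, Myh11, Smtn, Lmod1), 1 of 5 had enough H3K4me3 reads, Smtn, with a ratio of 1.26. In H3K27ac 1 of 2 was higher (5.38% of all promoters), Lmod1, from 1 to 31 reads, a ratio of 6.29 (2.03 to 497). The lowest called ratio was that of Cnn1 in H3K4me1, from 23 to 3 reads, a ratio of 0.172 (0.0259 to 0.446). Of this list only Smtn could thus be set beside Acta2 in H3K4me3, with 84 and 126 reads against 71 and 182.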

How the data were processed

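ChIP-seq of 6 histone marks in C2C12 myoblasts and myotubes gave 12 libraries, amplified for 15 PCR cycles and cut at fragments of about 250 bp, adaptors included. The authors aligned the reads to mm9 with Mosaik and kept unique alignments, and the deposited read files were used as counts, 1 line of 34 bases per read. The authors called peaks with MACS, and the deposited lists give a score for each peak. What was merged into each file, whether duplicates were removed and the MACS settings are not given in the sources used here. No input library was used here. The files held 1858771 to 7033100 reads, of which 0.417% to 3.14% shared position and strand with another.

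Reads on chromosomes 1 to 19 and X were extended to 150 bp and their midpoints counted in 2001 bp around 1 TSS per gene (GENCODE M1), over the gene body and in the 20 kb on either side. The flanks begin at the ends of the gene, so they overlap any part of the promoter window that lies outside it. The main window was the promoter for 5 marks and the gene body for H3K36me3. Fold enrichment divides by the library mean over 2555806925 bases other than N. The limit allowed by a count of 0 was set at 3 reads. The promoter sequence and motifs of Actb are not reported here. A midpoint near a window's edge can shift with the extension, and unique alignment removes reads from bases shared between actin genes and their processed copies. Pairs of libraries were compared for each mark with no test, and the same rule was applied to all protein-coding genes for the background. The steps were tested on simulated data. The 6 genes and all gene lists were chosen with earlier results of these data known. The genes named are the 6 actins in full, for each the deposited H3K27ac or H3K4me1 peak with most H3K27ac reads within 20 kb and over 1 kb from any TSS, the 3 genes with the most similar profile (among those with at least 20 H3K4me3 and H3K36me3 reads together), and the largest rise and fall of each list. The scripts ran under Python 3.11.15 with SciPy 1.17.1 for intervals, pandas 2.3.3 and NumPy 2.4.6 for tables, and Matplotlib 3.10.9 for figures.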

Additional observations from a re-analysis of the deposited data

How the results depend on the processing

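Of 36 combinations of gene and mark, 14 were past 2-fold, and 11 of these stayed past it under every alternative run for them (13 in all, of which 12 were run for a promoter mark and 10 for H3K36me3); the exceptions were H3K4me1 at Actc1, Actg2 and Actb. With 500 bp either side of the TSS, 1 actin promoter in place of 3 was past 2-fold in H3K4me1: none of the 3 calls remained (2 for too few reads), and Acta2 was newly lower at 0.421. With 2 kb either side it was 4 in place of 2 in H3K4me2 and 2 in place of 1 in H3K27me3, and H3K4me1 at Actb turned from a ratio of 3.72 to 0.970. Actg2 was then newly lower in H3K27ac at 0.465, and Acta1 newly higher in H3K4me1 at 2.86. Scaled by windows without peaks, 4 in place of 2 were past 2-fold in H3K4me2 (Actg2 and Actg1 were added, both lower), and with no minimum of reads 2 in place of 1 in H3K27me3. The cause was not tested. Scaling moved the ratio that is set to 1 by -0.85 (log2) in H3K27ac and -0.68 in H3K4me2 with the median of marked promoters, and by 0.64 in H3K4me2 with windows without peaks. No paired analysis was possible because each group holds 1 library. The most upstream TSS was not run for gene bodies, which do not depend on it, nor were other promoter widths.

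Depth limits the H3K27me3 comparison, where 5 of 6 promoters held fewer than 20 reads in both libraries together, and the ratios of Acta1 and Actc1, whose myoblast promoters held 1 to 6 reads in H3K4me3 and H3K27ac. Without replicates, differences between cultures, antibody batches or libraries cannot be told apart from those between cell types.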
